A study of Mus musculus with 4 samples.

Results

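Interleukin-17A (IL-17A), IL-17F and IL-22 are cytokines of group 3 innate lymphoid cells and of T helper 17 cells, and IL-23 is an upstream signal that drives their production. The accessible regions examined here belong to 10 genes of this axis in mouse lymphoid tissue inducer (LTi) cells: Il17a, Il17f, Il22 and Il23a among the ligands, Il23r, Il12rb1 and Il12rb2 among the IL-23 and IL-12 receptor chains, and Il17ra, Il17re and Il17rb among the IL-17 receptor chains. A region was taken when the nearest end of a protein-coding gene, within 50 kb, belonged to one of these genes, or when its midpoint lay in the gene body. This gave 9 of the 16584 regions in the deposited DNase-seq table. They belonged to 6 of the 10 genes (60.0%), against 55.1% of all protein-coding genes, namely Il17a, Il17f and Il23r with 2 regions each and Il22, Il17ra and Il17re with 1 each. Il23a, Il12rb1, Il12rb2 and Il17rb had none.

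DNase-seq maps open chromatin from the ends of DNA cut by the nuclease DNase I. The study profiled 2 libraries labelled Tcf7-KO, from Tcf7fl/fl mice that also carry a Cre recombinase, and 2 labelled Ctrl, from Tcf7+/+ mice, all C57BL/6. Tcf7 encodes the transcription factor TCF-1. The Cre is not specific to LTi cells and acts in other lymphocytes too. The labels give neither the age of the mice nor whether the Tcf7+/+ mice carried Cre. Each library came from 300 cells of Peyer's patches, sorted as negative for lineage markers, KLRG1, NK1.1 and NKp46 and positive for CD127 and CCR6, with nuclease treatment at 0.3 U over 5 minutes. The table analysed here gives each region 1 read count under a peak heading and 1 under a control heading, called its peak side and control side below. The labels do not say which libraries or which genotype stand under each heading. Tcf7-KO and Ctrl mice are therefore not compared, and a fold below describes only how the reads of a region divide between both headings.

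The regions are islands, runs of enriched windows joined by the peak caller SICER. The fold, from the authors' deposited table, divides the peak-side reads by the control-side reads times 0.345. Each fold is followed by its exact (Clopper-Pearson) 95% counting interval, computed from the 2 read counts. With no value per replicate and no molecular identifiers to separate molecules from copies, these intervals cover counting error only. An island was called at an FDR under 0.05 as listed in the authors' deposited table. A count of reads does not tell whether more cells were open at a site or each cell was cut more often. Positions are on build mm10, counted from 1.

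As background, IL-23 consists of the p19 subunit encoded by Il23a and the p40 subunit encoded by Il12b. It signals through IL-23R paired with the IL-12RB1 chain, while IL-12 pairs that chain with IL-12RB2. IL-23R signalling through JAK2, TYK2 and STAT3 is known to promote transcription of Il17a, Il17f and Il22. IL-17A and IL-17F act on other cells through IL-17RA and IL-17RC, IL-17C through IL-17RE and IL-25 through IL-17RB. IL-22 acts mainly on epithelial cells. LTi cells are known as a source of IL-17A and IL-22 and as a target of IL-23.

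The label of the sorted cells was set against marker genes. Of 9 LTi and group 3 innate lymphoid markers, 8 (88.9%) had an island, against 55.1% of all protein-coding genes, among them Il7r, Kit, Id2, Lta and Ltb, and Ccr6 had none assigned. Islands were assigned to 1 of 6 T cell markers (Cd3d), 2 of 6 B cell markers (Cd79b and Pax5), 1 of 5 myeloid markers (Spi1), 1 of 6 NK and group 1 markers (Eomes) and 4 of 6 group 2 markers (66.7%; Gata3, Il1rl1, Il5 and Klrg1). The contribution of such cells to the islands described here was not tested.

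The RefSeq table of promoters (GRCm38.p6) holds a window of 300 bases, 250 before the start site and 50 from it on, for 7 of the 10 genes, and the windows of Il12rb1, Il17ra and Il23a were not analysed here. Of these 7 windows only that of Il23r lay under an island, and it did so over all 300 bases. Of all 32851 promoter windows in the table, 33.9% touched an island. The start site of a window can differ from the gene end used to assign islands. That of Il17f (20784270) lies inside the gene bounds used here (20777146 to 20785274) and not at an end. The same holds for Il22, Il12rb2 and Il17re. The Il23r window is printed as the only one of the 7 under an island, and those of Il17a and Il17f as the promoters of the cytokine genes with the most islands nearby. Capitals mark matches, on either strand, to the motifs described after the sequences. Each window is read from 5′ to 3′ on the strand of its gene, at chr6:67491806-67492105 (minus strand) for Il23r, chr1:20730655-20730954 (plus strand) for Il17a and chr1:20784221-20784520 (minus strand) for Il17f.
Il23r: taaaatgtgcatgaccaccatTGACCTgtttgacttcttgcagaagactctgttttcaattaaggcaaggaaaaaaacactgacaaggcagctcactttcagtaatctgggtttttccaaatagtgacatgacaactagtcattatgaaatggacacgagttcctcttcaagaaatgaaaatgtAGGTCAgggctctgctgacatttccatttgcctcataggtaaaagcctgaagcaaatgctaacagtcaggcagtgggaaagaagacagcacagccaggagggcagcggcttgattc
Il17a: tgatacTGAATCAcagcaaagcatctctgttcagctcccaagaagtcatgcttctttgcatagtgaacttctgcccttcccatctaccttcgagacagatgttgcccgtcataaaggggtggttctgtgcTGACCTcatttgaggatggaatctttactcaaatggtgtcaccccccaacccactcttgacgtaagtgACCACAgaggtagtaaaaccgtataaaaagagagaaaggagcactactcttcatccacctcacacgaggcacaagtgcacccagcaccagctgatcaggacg
Il17f: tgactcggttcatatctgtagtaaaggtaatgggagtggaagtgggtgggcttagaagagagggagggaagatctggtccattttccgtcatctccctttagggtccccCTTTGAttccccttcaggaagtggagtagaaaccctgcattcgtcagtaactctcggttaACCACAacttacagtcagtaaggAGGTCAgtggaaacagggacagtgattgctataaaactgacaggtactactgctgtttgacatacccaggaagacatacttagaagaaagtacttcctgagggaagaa

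Each of these 3 windows held AGGTCA, the core that nuclear receptors such as RORA recognise, and none of the windows of Il12rb2, Il17re, Il22 and Il17rb did. Over all promoter windows, 16.3% held it. Il23r had it at -229 (minus strand) and -66 (plus strand), Il17a at -120 (minus strand) and Il17f at -58 (plus strand), where positions give the first base of the match on the printed strand and -1 is the base before the start site. CTTTGA, the core that TCF-1 and LEF-1 recognise, was found in the Il17f window alone among the 7, at -141, against 5257 of all 32851 windows. The RUNX core TGTGGT was found at -52 in Il17a and at -81 in Il17f, both on the minus strand, against 16.8% of all windows.

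The matches to the other motifs were all in windows with no island. TGANTCA, the AP-1 site, was found in Il17a at -244 and in Il17rb at -104, against 7.81% of all windows. GCGTG, the core bound by the aryl hydrocarbon receptor, was found 4 times in Il12rb2 and 1 time in Il17rb, against 32.4% of all windows. The STAT site TTCNNNGAA was found in Il12rb2 alone, against 8.30% of all windows. A loose form of the NF-kB site was likewise found in Il12rb2 alone, against 11.9% of all windows. This match began at -1, and the form was found in 0 of the 7 when only the 250 bases before the start were searched. A strict form was found in none of the 7 windows, against 0.0883% of all windows. No 2 of the 16 matches overlapped. Such a match describes letters in a window and is not a bound site. Il23r had 2 CpG dinucleotides in its window, Il17a 6, Il17f 4, Il22 4 and Il17re 3, while Il12rb2 had 12 and Il17rb 32. The median was 23 over promoter windows that touched an island and 4 over those that did not, so the open Il23r window lay at the CpG-poor end and the CpG-rich Il17rb window had no island.

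The 9 islands were small in reads and lay mostly away from gene ends. They had 10 to 14 peak-side reads (median 12) and 3 to 24 control-side reads (median 18), against medians of 18 peak-side and 27 control-side reads over all islands. Their width was 1000 to 3000 bp (median 1800), the same median as all islands. Per kb of island they had 4.0 to 12.0 peak-side reads (median 7.78), against a median of 10.6 over all islands. Of the 9 islands 3 (33.3%) lay within 1 kb of a gene end and 6 (66.7%) between genes, against 55.7% and 20.0% of all islands. Those between genes were the 4 in the single stretch between Il17a and Il17f, the Il22 island and the upstream island of Il23r.

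**Figure D1:**
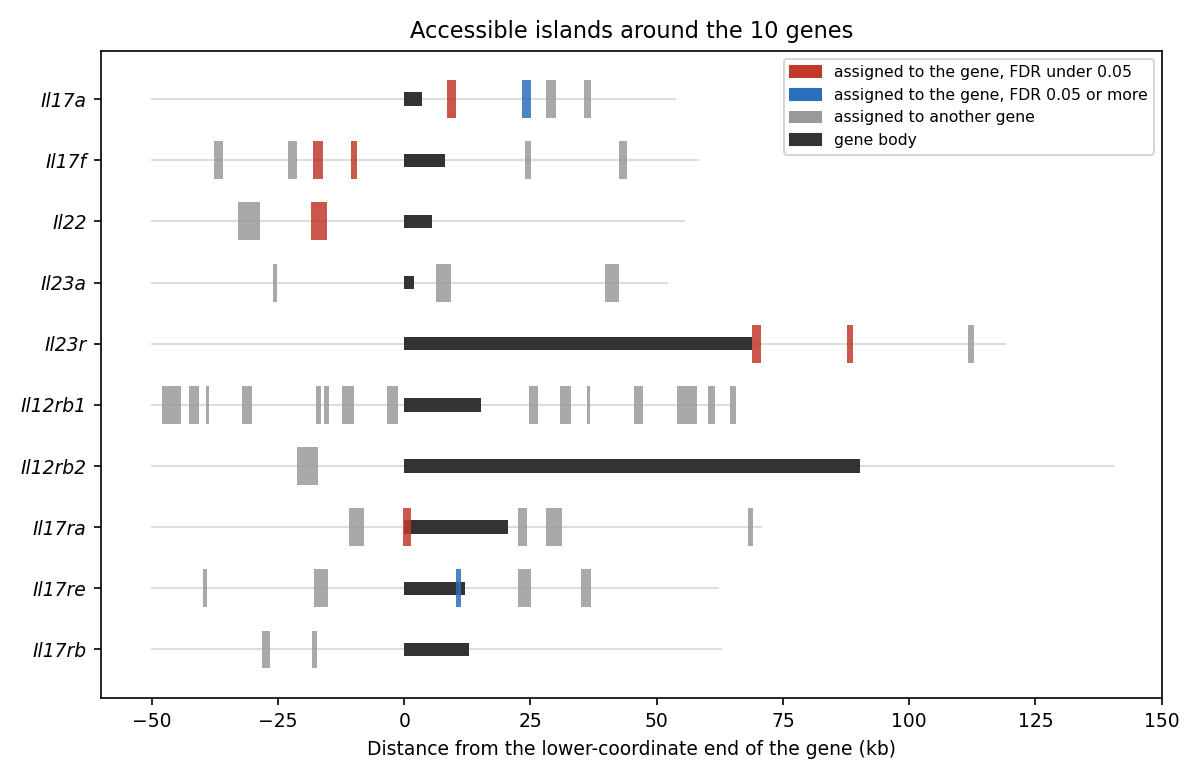
Islands around the 10 genes, 1 row per gene. The horizontal axis is the distance in kb from the gene's lower-coordinate end, black bars are gene bodies, red and blue bars are islands assigned to the gene with an FDR under 0.05 or not, and grey bars are islands assigned to other genes. The islands of Il17a lie to the right of the gene and those of Il17f to the left of it, in the stretch between both genes, and Il12rb1 is flanked by 15 islands within 50 kb that belong to its neighbours.

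Of the 9 islands 7 (77.8%) were called in the authors' deposited table, against 82.3% of all islands, so the share of calls was near that of the table. Under stricter rules 4 of the 9 (44.4%) had an FDR under 0.01, against 64.2% of all islands, and 4 had an FDR under 0.05 together with a fold over 2, against 50.4%. With the control side rescaled so that the folds of the whole table centre on 1, 2 of the 9 (22.2%) were called, against 9.19% of all islands when scaled by summed reads and 6.61% when scaled by the median ratio. These 2 were the outer islands of the stretch between Il17a and Il17f. The median fold of the 9 islands was 1.93 (range 1.58 to 10.6), against 2.01 over all islands (middle 50% of islands 1.61 to 2.62). Summed, they held 108 peak-side and 134 control-side reads, a pooled fold of 2.34 (1.80 to 3.03). The counting interval lay above 1 in 4 of the 9 islands, and in 2 of these, both between Il17a and Il17f, it also lay above the median of all islands. It included 1 in the called islands of Il22 (0.850 to 4.24), Il17ra (0.809 to 3.41) and upstream of Il23r (0.757 to 3.96). For these the call does not hold beyond counting error on both sides. A fold over 1 was found in 98.3% of all islands, so folds above 1 do not set these 9 apart. The shares of all islands with an interval above 1, or above the median, were not counted. Neither count of intervals therefore sets these islands apart from the rest.

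**Figure D2:**
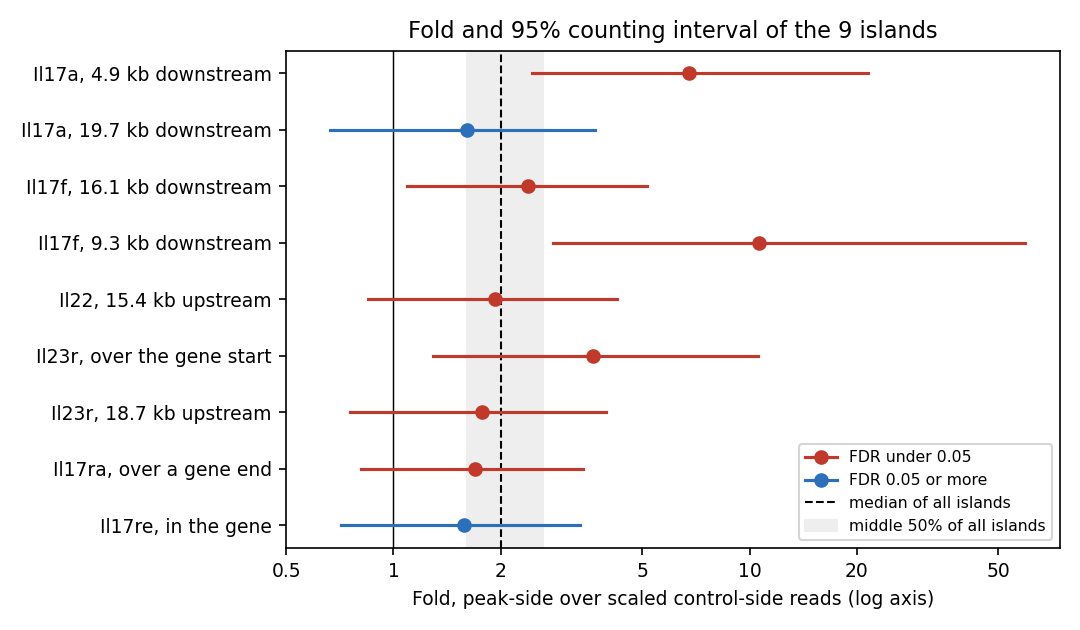
Fold of each of the 9 islands (points) with its 95% counting interval (lines), on a log axis of peak-side over scaled control-side reads. Red marks an FDR under 0.05, blue an FDR of 0.05 or more, the dashed line the median of all islands (2.01) and the grey band their middle 50%. The islands 4.9 kb downstream of Il17a, 9.3 kb downstream of Il17f and over the Il23r start stand to the right of the band, and of their intervals only that of the island beside Il17f (2.81 to 59.4) lies wholly outside it.

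Il17a and Il17f, which encode 2 related cytokines that form homodimers and a heterodimer, had 4 islands, all in the stretch between them. The genes lie on chromosome 1 at 20730905 to 20734496 (Il17a, plus strand) and 20777146 to 20785274 (Il17f, minus strand), so they are transcribed towards each other and the 42.6 kb between them is downstream of both. No island lay over either gene. On the far side of Il17a the next island of the table was 4041 kb away, assigned to Ly96, and on the far side of Il17f it was 15.7 kb away, assigned to Mcm3.

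Within the stretch the folds were larger in the outer islands than in the inner ones. Their counting intervals overlapped, which is no test of the difference, and the ratio of outer to inner islands was not tested. The island 4.91 kb downstream of Il17a (20739401 to 20741200) had 14 peak-side against 6 control-side reads, giving a fold of 6.77 (2.44 to 21.5). The island 19.7 kb downstream of Il17a (20754201 to 20756000) had 10 peak-side against 18 control-side reads, giving a fold of 1.61 (0.665 to 3.68). Its FDR of 0.0612 in the authors' deposited table left it uncalled. Both belong to Il17a by distance, and their peak-side reads per kb were 7.78 and 5.56.

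On the side of Il17f the island 16.1 kb downstream of the gene (20759001 to 20761000) had 14 peak-side against 17 control-side reads, giving a fold of 2.39 (1.09 to 5.15). The island 9.35 kb downstream (20766601 to 20767800) had 11 peak-side against 3 control-side reads, giving a fold of 10.6 (2.81 to 59.4), the largest of the 9. Only 104 of all islands (0.627%) had a fold as large as the last, and 295 (1.78%) one as large as that of the island nearest to Il17a. Both islands combine a peak-side count below the median of the table (18) with 6 or fewer control-side reads.

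Taken as 1 stretch, the 4 islands held 49 peak-side and 44 control-side reads, a pooled fold of 3.23 (2.11 to 4.97). Without the island of 11 peak-side and 3 control-side reads the pooled fold was 2.69 (1.68 to 4.29). They covered 6.80 kb, or 15.9% of the stretch. The gene annotation holds 2780 gaps between protein-coding genes that are 30 to 60 kb long, of which 10 (0.360%) contained 4 or more islands and 2262 (81.4%) contained none. Only islands wholly inside a gap were counted, so an island over a gene end at the edge of a gap was left out. These gap lengths were chosen after the islands were seen, and the share is a description.

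Il22, whose product acts on epithelial barriers, had a single island at a distance. The gene lies on chromosome 10 (118204584 to 118210047, plus strand), and the island was 15.4 kb upstream of it (118186201 to 118189200), towards Mdm1. It had 12 peak-side against 18 control-side reads, giving a fold of 1.93 (0.850 to 4.24), with an FDR of 0.0161 in the authors' deposited table. It was the widest of the 9 islands and had the fewest peak-side reads per kb (4.0, against 6.0 on the control side).

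A near copy of Il22, Iltifb, lies 79.6 kb from it and had 1 island, 12.4 kb from that gene. That island (118307401 to 118308600) had 13 peak-side against 5 control-side reads, giving a fold of 7.54 (2.52 to 27.0). Reads from near-identical copies can be placed on either one, and whether the sequence around the islands of both genes is shared was not tested.

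Il23a, which encodes the p19 subunit of IL-23, had no island of its own. It lies on chromosome 10 at 128296140 to 128298084, between Stat2 and Pan2. The closest island, 4.32 kb away and assigned to Pan2, had 31 peak-side against 52 control-side reads, giving a fold of 1.73 (1.07 to 2.75). On the other side the closest island, assigned to Stat2, was 25.1 kb away. The lowest peak-side count in the table was 8, and the absence of an island is no measure of closed chromatin.

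Il23r, the chain that makes a cell responsive to IL-23, had both an island over its start and one further upstream. The gene lies on chromosome 6 (67422932 to 67491855, minus strand). The island over the start (67491801 to 67493600), which contains the promoter printed above, had 10 peak-side against 8 control-side reads, giving a fold of 3.63 (1.29 to 10.6). The island 18.7 kb upstream (67510601 to 67511800) had 11 peak-side against 18 control-side reads, giving a fold of 1.77 (0.757 to 3.96). Both were called in the authors' deposited table, with FDRs of 0.000439 and 0.0323, and pooled they gave a fold of 2.34 (1.25 to 4.33). Peak-side reads per kb were 5.56 over the start and 9.17 upstream, so the island of the larger fold was the one of fewer reads per kb. No other island overlapped the 68.9 kb gene body.

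The receptor chains of IL-12 had no island. Il12rb2, the chain specific to the IL-12 receptor, lies next to Il23r on chromosome 6 (67285986 to 67376293), and its 90.3 kb held none. The nearest islands were 17.0 kb away at Serbp1 (48 peak-side and 57 control-side reads, fold 2.44, 1.63 to 3.65) and 115.5 kb away at the Il23r start. Il12rb1, the chain shared by both receptors, lies on chromosome 8 (70808360 to 70823542) and likewise had no island over it. It stood in a crowded stretch with 15 islands within 50 kb, and all had another gene's end nearer. The closest of these lay 1.16 kb away at Mast3 (27 peak-side and 45 control-side reads, fold 1.74, 1.04 to 2.87) and 9.46 kb away near Arrdc2 (12 peak-side and 14 control-side reads, fold 2.49, 1.05 to 5.79).

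The IL-17 receptor chains had islands at Il17ra and Il17re, with folds below the median of all islands. Il17ra, the chain common to most IL-17 receptors, lies on chromosome 6 (120463181 to 120483731). The island over its lower-coordinate end (120463001 to 120464600) had 14 peak-side against 24 control-side reads, giving a fold of 1.69 (0.809 to 3.41), with an FDR of 0.0293 in the authors' deposited table. Il17re, the chain for IL-17C, lies on the same chromosome (113458699 to 113470758, plus strand). The island inside it (113469001 to 113470000), 758 bp from its downstream end, had 12 peak-side against 22 control-side reads, giving a fold of 1.58 (0.714 to 3.34). Its FDR of 0.0550 in the same table left it uncalled. It had the most peak-side reads per kb of the 9 islands, 12.0.

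Il17rb, the chain for IL-25 and a marker of group 2 innate lymphoid cells, had no island. It lies on chromosome 14 (29996168 to 30008896). The closest island was 17.4 kb away at Actr8, with 11 peak-side against 15 control-side reads, giving a fold of 2.13 (0.884 to 4.96). On the other side the next island was 127.5 kb away.

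**Figure D3:**
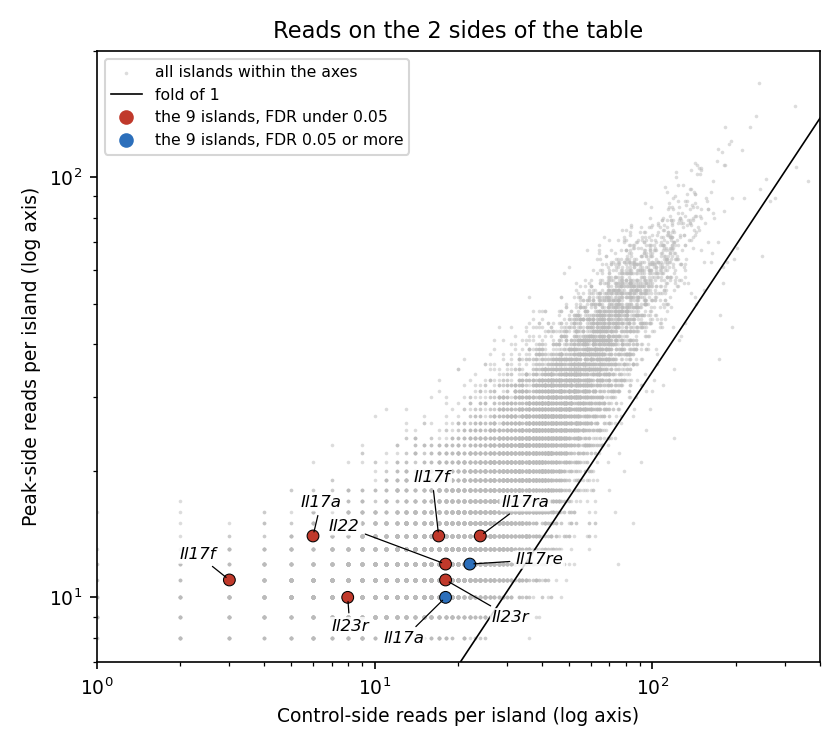
Peak-side reads against control-side reads per island, both on log axes, for all islands within the axes (grey; islands with 0 control-side reads or beyond the axes are not drawn) and for the 9 islands (red, FDR under 0.05; blue, FDR of 0.05 or more). The black line marks a fold of 1. The 9 islands lie in the lower part of the cloud, at 10 to 14 peak-side reads, and spread from 3 to 24 control-side reads.

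Ranked by pooled fold, the genes with islands stood in the order Il17f (3.63, 1.93 to 6.88), Il17a (2.90, 1.58 to 5.33), Il23r (2.34), Il22 (1.93), Il17ra (1.69) and Il17re (1.58). No neighbours in this order differed beyond counting error. The exact conditional interval of the ratio between neighbours included 1 in all 5 pairs, and the ratio of the first to the last was 2.27 (0.836 to 6.37). Among the 9 single islands the interval also included 1 for all 8 pairs of neighbours. The largest fold, beside Il17f, was 6.44 times the smallest, at Il17re, by the conditional estimate (1.35 to 43.0), a pair picked as the extremes of 9. Il17f and Il17a stood first and the IL-17 receptor chains last, but the order is not resolved at these read counts.

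Other genes of the pathway were listed for comparison, with earlier results of these data known. Of 35 such genes 23 (65.7%) had an island, against 60.0% of the 10 genes above and 55.1% of all protein-coding genes. Their 52 islands had a median fold of 2.22, and 45 (86.5%) were called in the authors' deposited table, against 82.3% of all islands. Signalling genes had islands at 8 of 8, regulators of the cytokine genes at 6 of 7, receptors at 5 of 8 and ligands at 4 of 12.

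Among the signalling genes, Socs3, a feedback inhibitor of STAT3, had 5 islands with 111 peak-side against 153 control-side reads, giving a pooled fold of 2.10 (1.63 to 2.70). Stat3, the main transducer of IL-23 and IL-22 signals, had 1 island with 60 peak-side against 111 control-side reads, giving a fold of 1.57 (1.13 to 2.17). Jak2, a kinase bound to IL-23R, had 46 peak-side against 100 control-side reads, giving a pooled fold of 1.33 (0.920 to 1.91). Traf3ip2, Traf6, Tyk2, Stat4 and Nfkbiz also had islands.

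The regulators of the cytokine genes included the gene with the most peak-side reads of those listed. Rora, a nuclear receptor, had 7 islands with 157 reads on each side and a pooled fold of 2.90 (2.31 to 3.64). Runx1 had 6 with 117 peak-side against 168 control-side reads, giving a pooled fold of 2.02 (1.58 to 2.57). Maf, a bZIP factor, had 1 with 61 peak-side against 81 control-side reads, giving a fold of 2.18 (1.54 to 3.08). Ahr, Batf and Ikzf3 also had islands, and Irf4 had none.

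Of the other receptors, Il6st, the signal chain shared by the IL-6 family, had 39 peak-side against 56 control-side reads, giving a fold of 2.02 (1.31 to 3.09). Il17rc, the partner of IL-17RA and the neighbour of Il17re, had 34 peak-side and 56 control-side reads in 1 island and a fold of 1.76 (1.11 to 2.74), which the neighbouring Creld1 shares. Il17rd had 30 peak-side and 44 control-side reads (pooled fold 1.98, 1.20 to 3.22). Il10rb, the chain shared by the IL-22 and IL-10 receptors, and Il27ra also had islands, and Il22ra1, Il22ra2 and Il10ra had none.

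Of the other ligands, Ebi3, a subunit of IL-27, had 3 islands with 50 peak-side against 59 control-side reads, giving a pooled fold of 2.46 (1.65 to 3.64). Il17b had 26 peak-side and 46 control-side reads (1.64, 0.973 to 2.71) and Il10 had 24 peak-side and 23 control-side reads (3.03, 1.64 to 5.61). Il12a, the p35 subunit of IL-12, also had islands. Il12b, the p40 subunit that IL-23 needs, had none, nor did Il17c, Il17d, Il25, Il27, Il19, Il20 and Il24.

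**Figure D4:**
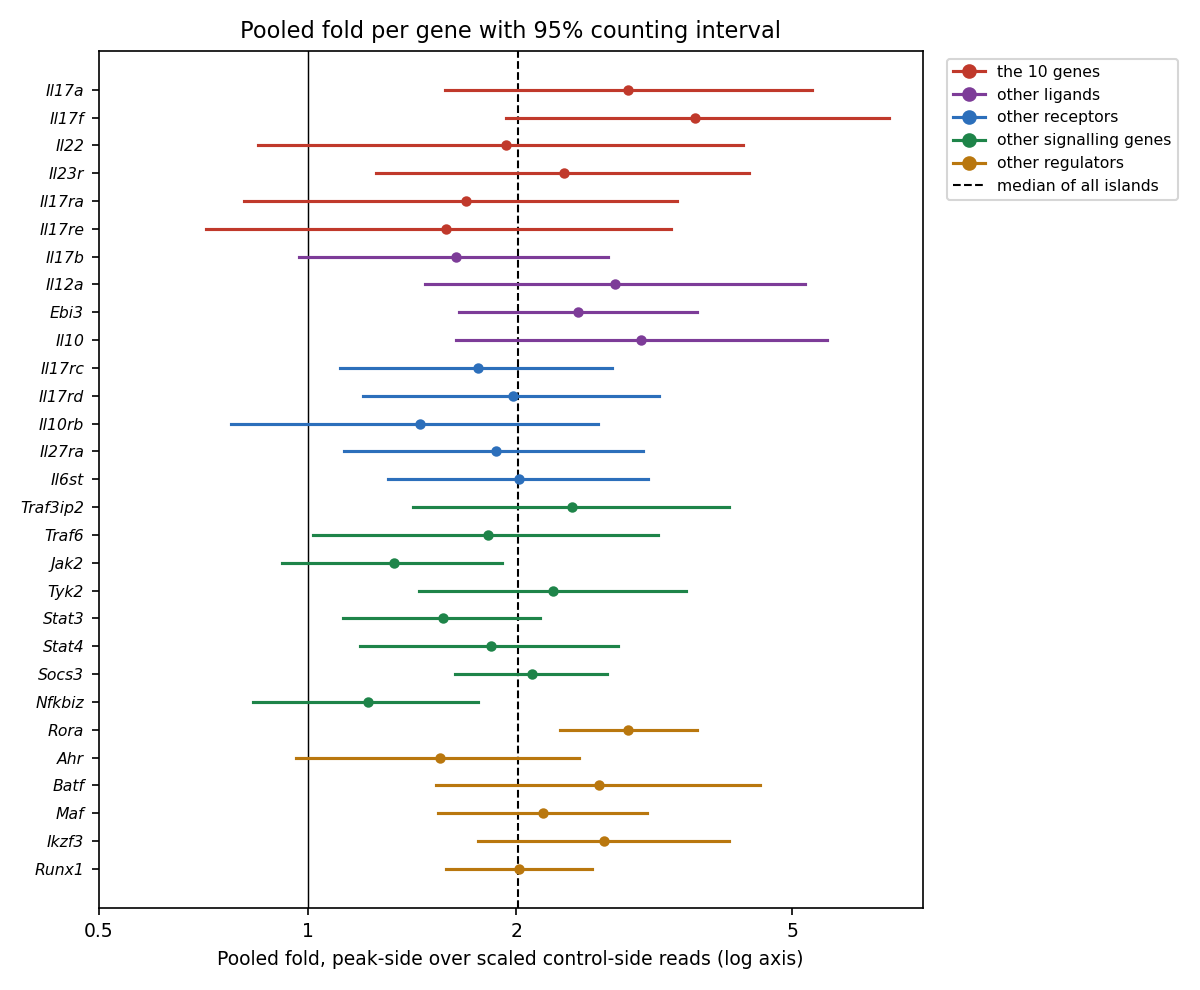
Pooled fold per gene (points) with its 95% counting interval (lines), on a log axis of peak-side over scaled control-side reads, for the 6 genes with islands among the 10 (red) and for 23 other pathway genes (other colours by role). The dashed line is the median of all islands (2.01) and the solid line a fold of 1. All points lie to the right of the solid line, where 98.3% of all single islands of the deposited table also lie. Most intervals cross the dashed line, with that of Rora (2.31 to 3.64) to the right of it and those of Jak2 and Nfkbiz to the left.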

How the data were processed

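The submitters' processing notes name Bowtie2 2.4.2, SICER 2.0 and mm10. Parameters and any pooling of libraries are not stated there or in the labels. Per the file headers, the deposited table gives positions, read counts on 2 sides, p-values, a fold (ratio) and an FDR (q-value) per island. The deposited read counts are whole and not normalized, summing over islands to 425134 (peak side) and 645087 (control side), and the depth of single libraries is unknown. All 16584 deposited folds and p-values were recomputed (tolerance 1e-06), as was the FDR within 0.01, with a Poisson tail around control-side reads multiplied by 0.345 (0.25 reads in place of 0). The intervals were tested on simulated data with independent Poisson counts on both sides. The simulation held no selection of islands by peak-side reads and no read copies, so it does not cover these features of the real table.

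Gene positions came from a RefSeq table (GRCm38.p6, the assembly behind mm10), which lists 21896 protein-coding genes, and all symbols matched. An island at the same distance from 2 gene ends was given to both genes. The members and lists were chosen with earlier results of these data known. A listed gene that is not reported here was left out of all list counts. All 10 genes are named, as are, in each pathway group, up to 3 genes with the most peak-side reads, while genes without an island are given by name. The planned edgeR comparison of Tcf7-KO with Ctrl was not run for want of values per library, and likeness between genes could not be measured without values per sample. Python 3.11.15, scipy 1.17.1 and matplotlib 3.10.9 were used.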

Additional observations from a re-analysis of the deposited data

How the results depend on the processing

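The comparison of Tcf7-KO with Ctrl mice was not run, with its leave-one-out fits, DESeq2 fit and filters, for want of values per library. No paired analysis was possible because neither read column names a replicate. The number of islands of the 10 genes (9) rests on the window: it was 5 within 10 kb, 3 within 1 kb and 2 in gene bodies alone. With at least 20 peak-side reads it was 0, so the median fold could not be given under that minimum. Counting every island within 50 kb, whatever gene is nearest, gave 42, an alternative chosen after seeing the data. Of the 7 called islands 4 passed an FDR under 0.01 (64.2% of all islands), and 4 passed an FDR under 0.05 with a fold over 2 (50.4% of all islands). With control-side reads scaled by the summed reads of the table or by its median ratio, 2 were called under each (9.19% and 6.61% of all islands). These scalings set the overall or median fold of the table to 1, so lower folds were built in. They put the median fold of the 9 islands at 1.01 and 0.963, in place of 1.93. The pooled fold of Il17a was 1.52 (0.825 to 2.79) and 1.44 (0.786 to 2.66). That of Il17f was 1.90 (1.01 to 3.60) and 1.81 (0.963 to 3.43), and that of Il23r 1.23 (0.656 to 2.27) and 1.17 (0.624 to 2.16). Among these intervals only that of Il17f scaled by summed reads lay above 1. The folds of Il22 (1.01 and 0.963), Il17ra (0.885 and 0.843) and Il17re (0.828 and 0.788) were then near or below 1. Within 10 kb the median fold was 3.63. Without its island of most peak-side reads, Il17f stood at 10.6 and Il17a at 1.61. Of the 35 other pathway genes, 22 had an island within 10 kb and 22 within 1 kb, in place of 23. Of all recomputed values, 17 left the counting interval of the value they replace or, for counts, moved by over 1.5 times, and 25 did not. For the median fold of the 9 islands this interval was that of the single island at the median (0.850 to 4.24), which is no interval of the median itself.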
